A study of Mus musculus with 2 samples.

Results

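Stefin A-high neutrophils are gated skin neutrophils in which the genes of the stefin A cluster were strongly expressed. They made up 527 of the 1082 gated neutrophils and 527 of the 8359 cells kept from the series. The cells were chosen by their own reads. A cell was kept if at most 20% of its reads were mitochondrial and at least 200 genes were detected. It was gated as a neutrophil with at least 5000 CPM (reads of a gene per 1000000 reads of the cell) of S100a8 and S100a9 together, at least 100 CPM of Csf3r and Cxcr2 together, and under 2000 CPM of the fibroblast and keratinocyte genes Dcn, Krt5 and Krt14. It was called stefin A-high if Stfa1, Stfa2, Stfa2l1, Cstdc4, Cstdc5 and Csta3 together reached 2000 CPM. The 555 remaining gated neutrophils are called stefin A-low. The levels of the genes in these sums therefore describe the selection, and their difference between stefin A-high and stefin A-low neutrophils was not tested.

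BALB/c mice were studied for IgE-mediated chronic allergic inflammation of the ear (IgE-CAI), a model in which IgE-bearing basophils drive a delayed swelling of the skin. WT and Ccr2-/- mice, the latter lacking the chemokine receptor that brings classical monocytes into tissue, were all given anti-TNP IgE (300 µg) into a vein and a day later TNP-OVA (10 µg) into the ear, and skin cells were isolated on day 3 or day 5. Each of the 4 groups (WT day 3, WT day 5, Ccr2-/- day 3, Ccr2-/- day 5) was 1 pool of cells marked with its own hashtag antibody, after dead cells had been removed by density separation, and the pools were mixed before 1 cDNA library and 1 hashtag library were made on a microwell system. The mice of the study were males aged 7 to 12 weeks. How many entered a pool is not stated, so no difference between 2 pools could be tested against animal-to-animal variation.

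Neutrophils are short-lived granulocytes that leave the bone marrow under the influence of the G-CSF receptor (Csf3r) and enter tissue along CXCR2 ligands. Their granule proteins are made at successive stages in the marrow, azurophil proteins first, then those of specific and gelatinase granules, so that mature cells in tissue keep little of the early transcripts. Stefins A are small cytosolic inhibitors of cysteine cathepsins. Humans carry CSTA, whereas the mouse has a tandem cluster of related copies, several of which are known to be abundant in neutrophils.

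All 11 family genes named in the files lay within 335.4 kb of chromosome 16 (chr16:36119946-36455392, GRCm38.p6, RefSeq), a stretch with 12 protein-coding genes. From one end they were Csta1, Stfa2l1, Cstdc4, Csta3, Csta2, Stfa1, Cstdc3, Cstdc6, Cstdc5, Stfa2 and Stfa3. The copies are close relatives, and how reads that fit 2 copies were counted is not stated. The longest identical stretch between the annotated transcripts of Stfa2 and Stfa2l1 was 97 bases, and between those of Cstdc4 and Csta2 it was 134 bases, so levels of single copies are uncertain. Transcripts of 8 of the 11 genes were matched in the annotation for this comparison.

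The promoters of the expressed copies share a short block just before the gene start, shown here because these copies were detected together in the same cells. Each line gives the 150 bases before the RefSeq start on the gene's own strand, with the longest run common to the 6 selecting genes (12 bases) in capitals. Cstdc4 is at chr16:36184062-36184211 (plus strand), Stfa2l1 at chr16:36156661-36156810 (plus), Cstdc5 at chr16:36367571-36367720 (minus), Stfa2 at chr16:36408364-36408513 (minus) and Csta1 at chr16:36131190-36131339 (minus), all in GRCm38.p6.
Cstdc4: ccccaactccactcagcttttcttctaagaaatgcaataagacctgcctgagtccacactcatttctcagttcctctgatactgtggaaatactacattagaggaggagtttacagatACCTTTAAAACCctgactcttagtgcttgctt
Stfa2l1: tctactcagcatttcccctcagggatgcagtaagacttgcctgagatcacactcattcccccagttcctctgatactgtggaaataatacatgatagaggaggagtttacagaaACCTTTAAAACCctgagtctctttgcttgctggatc
Cstdc5: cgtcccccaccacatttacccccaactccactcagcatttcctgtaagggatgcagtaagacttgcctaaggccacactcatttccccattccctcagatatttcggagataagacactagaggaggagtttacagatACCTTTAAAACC
Stfa2: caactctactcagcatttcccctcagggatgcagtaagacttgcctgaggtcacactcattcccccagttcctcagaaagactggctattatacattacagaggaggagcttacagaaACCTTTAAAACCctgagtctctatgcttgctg
Csta1: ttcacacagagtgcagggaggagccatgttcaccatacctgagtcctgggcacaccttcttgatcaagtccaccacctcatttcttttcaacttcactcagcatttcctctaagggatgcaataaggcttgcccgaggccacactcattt
The run ACCTTTAAAACC lies in the 250 bases before the start of all 6 selecting genes because it was chosen as common to them. It was also found in Stfa3, and in none of Csta1, Csta2 and Cstdc3, all of which were near 0 in the selected cells. The 6 genes had themselves been chosen for their reads in these cells, and a relation between the run and expression was not tested. It began 32 bases before the start in Cstdc4 and Stfa2 and 80 bases before it in Csta3. Of 32851 RefSeq promoters of the same length, 11 (0.0335%) held it on either strand. These 11 include the 6 selecting genes and Stfa3, which are related copies and not independent cases. Over these 250 bases Stfa2l1 and Stfa2 were 89.4% identical, whereas Cstdc4 and Cstdc5 were 64.5% identical. Cstdc6 has no entry in the promoter table. A shared run is a description of the sequence and not a measured binding site.

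The targeted gene followed the labels. Over all kept cells Ccr2 was at 346.5 CPM in WT day 3 and 340.8 CPM in WT day 5, against 13.3 CPM in Ccr2-/- day 3 and 11.9 CPM in Ccr2-/- day 5. The 2 libraries shared 8696 cell barcodes, and the matrix held 8953. A total of 26 of the 527 stefin A-high cells, 25 of them with at least 10 hashtag reads, had no hashtag 3 times above the next and were left out of every comparison between pools. No doublet caller was run. Stefin A-high cells held between 3142 and 165675 reads with a median of 9994 reads and 991 genes, and stefin A-low cells had medians of 9722 reads and 1018 genes, so the 2 classes were sequenced to nearly the same depth. The mitochondrial share had a median of 0.722% in stefin A-high and 0.726% in stefin A-low cells. Intervals given below are exact 95% intervals and cover counting error only, since reads rather than molecules were counted, PCR copies included.

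The name given to these cells was checked against markers. Of 11 neutrophil markers, 10 reached 20 CPM in the stefin A-high cells of WT day 3 and of both Ccr2-/- pools, and their summed level was 57203 to 77353 CPM, against 186.7 to 352.8 CPM in the cells of these pools outside the gate. S100a8, S100a9, Csf3r and Cxcr2 belong to both the gate and this list. Stfa2l1, Cstdc4 and Csta3 belong to both the stefin sum and this list, so their levels also follow from the selection. Of the markers outside the selection, Retnlg was at 675.6 to 1275 CPM, Mmp9 at 585.2 to 1122 CPM and G0s2 at 1170 to 1882 CPM. In the cells of these pools outside the gate they were at 26.2 to 39.3, 2.45 to 17.0 and 17.1 to 23.9 CPM. Ly6g, the usual surface marker of mouse neutrophils, was the 1 marker under 20 CPM. It stood at 0 CPM in WT day 3, 17.1 CPM in Ccr2-/- day 3 and 16.1 CPM in Ccr2-/- day 5. Eosinophil genes summed to 29.2 and 31.1 CPM in the Ccr2-/- pools with Epx at 0 in both, and to 129.6 CPM in WT day 3, where Epx, Prg2 and Ccr3 were at 0 and Siglecf, which activated neutrophils can also carry, gave 125.4 CPM. T or NK cell genes summed to 2.02 to 37.6 CPM and keratinocyte genes to 8.36 to 20.2 CPM over the 3 pools, basophil or mast cell genes to 12.5 to 80.1 CPM and endothelial genes to 4.18 to 230.4 CPM. Fibroblast genes summed to 1028 to 1612 CPM, against 25919 to 34730 CPM outside the gate, and Col1a1 had a read in 43.8% of the stefin A-high cells of Ccr2-/- day 3 and 49.2% of those of Ccr2-/- day 5 after each cell was thinned to 3000 reads. Monocyte or macrophage genes summed to 263.0 and 210.7 CPM in the Ccr2-/- pools and to 1446 CPM in WT day 3. Dendritic cell genes summed to 82.6, 79.65 and 1154 CPM in the same order, most of it from H2-Ab1. In WT day 3, 97.8% of the H2-Ab1 reads and 88.8% of the reads of the macrophage gene Mrc1 were in 1 cell.

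Stefin A-high neutrophils were found almost wholly in the Ccr2-/- pools. They numbered 21 in WT day 3, 2 in WT day 5, 153 in Ccr2-/- day 3 and 325 in Ccr2-/- day 5. As a share of all kept cells they were 1.30% (95% interval 0.808 to 1.98%) of WT day 3, 0.183% (0.0222 to 0.661%) of WT day 5, 6.73% (5.73 to 7.84%) of Ccr2-/- day 3 and 12.9% (11.6 to 14.3%) of Ccr2-/- day 5. Both Ccr2-/- pools were above both WT pools, and the mean share was 9.07 points higher in Ccr2-/- than in WT over the 2 days. With 2 pools per genotype an exact permutation test (two-sided) returned p = 0.33, which is the smallest value that 4 pools allow. A share of a pool also rises when other cells are fewer, and these cannot be told apart.

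**Figure D1:**
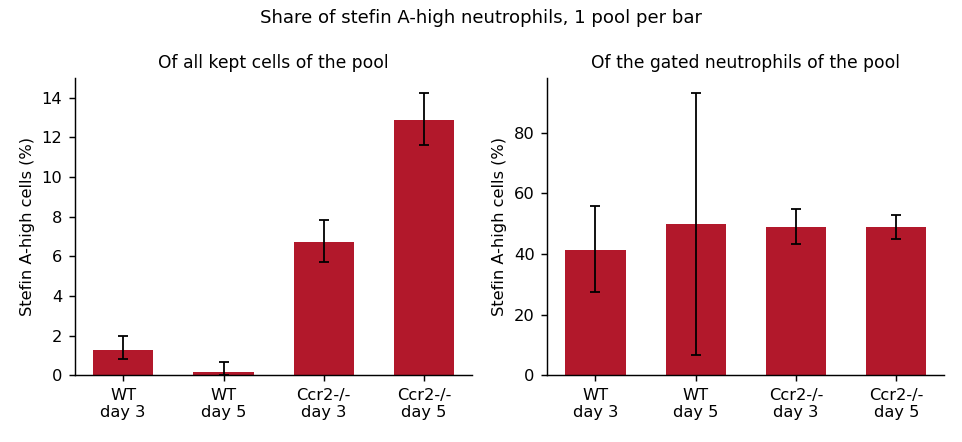
Stefin A-high neutrophils as a percentage of all kept cells (left) and of the gated neutrophils (right) of each pool; bars are single pools and lines are exact 95% intervals for counting error. The left panel ranges from 0.183% to 12.9%, whereas the right panel stays between 41.2% and 50.0%.

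The proportion of neutrophils that were stefin A-high differed little between pools at this limit. It was 41.2% (27.6 to 55.8%) in WT day 3, 49.0% (43.4 to 54.7%) in Ccr2-/- day 3 and 48.9% (45.0 to 52.7%) in Ccr2-/- day 5, and 2 of 4 in WT day 5. The intervals of the 4 pools overlapped. With a limit of 5000 CPM the shares were 21.6%, 36.2% and 38.5% in WT day 3 and the Ccr2-/- pools of day 3 and day 5, so the WT value then lay lower. Neutrophils as a whole were 3.16% of the kept cells of WT day 3, 0.367% of WT day 5, 13.7% of Ccr2-/- day 3 and 26.4% of Ccr2-/- day 5.

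The stefin A level was spread over a wide range with no gap at the limit. Of the 1082 neutrophils, 341 (31.5%) had no read of the 6 selecting genes, 214 lay above 0 and under 2000 CPM, and 246 reached 10000 CPM. The highest cell below the limit had 1996 CPM and the lowest cell above it had 2004 CPM. There were 46 neutrophils from 1500 to under 2000 CPM and 32 from 2000 to under 2500 CPM. Among the stefin A-high cells the sum had quartiles of 5019, 9206 and 18268 CPM and reached 73077 CPM, which rested on 9 to 1055 reads per cell with a median of 97. By pool the median was 5212 CPM in WT day 3, 8854 CPM in Ccr2-/- day 3 and 10334 CPM in Ccr2-/- day 5.

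**Figure D2:**
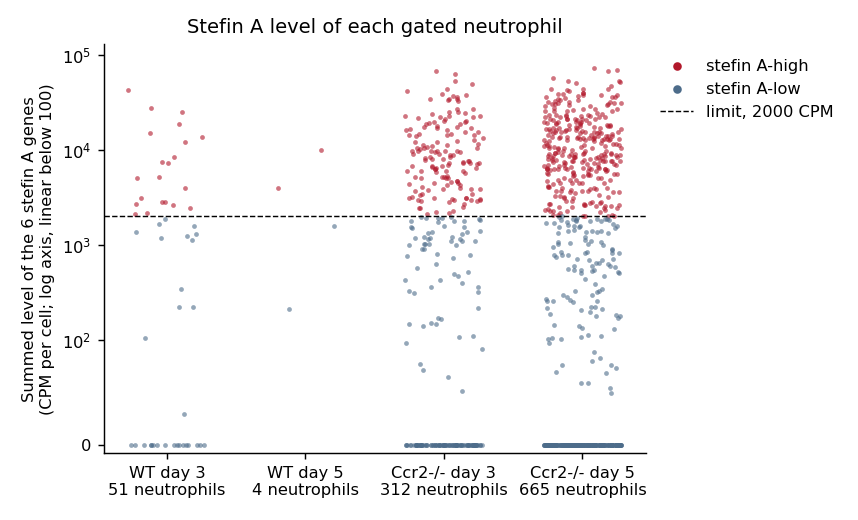
Summed level of the 6 selecting stefin A genes in each gated neutrophil (CPM, log axis that is linear below 100), by pool; each point is a cell and the dashed line is the limit of 2000 CPM. Cells fill the axis on both sides of the limit, a band of cells lies at 0, and the highest cell is at 73077 CPM.

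Stefin A reads were concentrated in these cells. In Ccr2-/- day 5 the stefin A-high cells were 12.9% of the kept cells and held 2.43% of all their reads, but 85.6% of the reads of the 6 genes. The share was 81.35% in Ccr2-/- day 3, 74.7% in WT day 3 and 14.35% in WT day 5, where 93 of 648 stefin reads were in the 2 stefin A-high cells and 83.5% were in cells outside the neutrophil gate. Stefin A-low neutrophils held 2.16 to 3.63% of these reads in each pool. A further 83 kept cells reached 2000 CPM of the stefin sum without being members, of which 44 missed the limit for S100a8 and S100a9 alone, 23 the limit for the fibroblast and keratinocyte genes alone and 4 the limit for the receptors alone, and 12 missed more than 1 limit.

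Cstdc4 and Stfa2l1 had the most reads in the family, with levels here given per reads and not divided by transcript length. Cstdc4, one of the tandem stefin A copies, was at 4055 CPM (3804 to 4318) in the stefin A-high cells of WT day 3, 5918 CPM (5811 to 6026) in the Ccr2-/- pool of day 3 and 6345 CPM (6266 to 6425) in that of day 5. Stfa2l1 (stefin A2 like 1) was at 3394 CPM (3165 to 3636), 3313 CPM (3234 to 3394) and 3490 CPM (3432 to 3550) in the same order. Of the reads of the 6 selecting genes Cstdc4 gave 44.0%, 48.5% and 48.65% and Stfa2l1 gave 36.8%, 27.2% and 26.8%, so that these copies held most of the stefin A signal in each of the 3 pools. In the 2 cells of WT day 5 they gave 57.0% and 27.96%.

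Cstdc5 and Stfa2 formed a second tier and differed in how they varied between pools. Cstdc5 was at 1292 CPM (1152 to 1444) in WT day 3, where 57.6% of its reads were in 1 cell, 1549 CPM (1494 to 1604) in the Ccr2-/- pool of day 3 and 1904 CPM (1861 to 1948) in that of day 5. Stfa2 was at 117.0 CPM (77.8 to 169.2) in WT day 3, 1021 CPM (976.7 to 1066) in the Ccr2-/- pool of day 3 and 884.9 CPM (855.5 to 915.1) in that of day 5. Stfa2 was thus the only family gene among the 6 tested that was past 2-fold between Ccr2-/- and WT on day 3, where it was 8.72 times higher (6.02 to 13.2 by counting error), on 28 WT reads, 67.9% of them from 1 cell. Its near copy Stfa2l1 stood at a log2 ratio of -0.03 in the same comparison.

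The remaining members were weakly expressed. Csta3 was at 271.7, 331.5 and 364.5 CPM and Stfa1 at 83.6, 63.5 and 54.0 CPM in the same pools, and 69.2% and 80.0% of their WT reads were in 1 cell. Stfa3, which did not enter the selection, had no read in WT day 3 and was at 142.1 CPM in Ccr2-/- day 3 and 83.8 CPM in Ccr2-/- day 5, in 12 and 31 cells. Its reads were absent from the stefin A-low cells of these 3 pools, but cells outside the neutrophil gate also held some. Stefin A-high cells held 37.45% of the Stfa3 reads of Ccr2-/- day 3 and 67.3% of those of Ccr2-/- day 5, and the rest were outside the gate. All 46 Stfa3 reads of WT day 3 were outside the gate. Cstdc6, also outside the selection, was at 16.7, 29.7 and 34.5 CPM. Csta1, Csta2 and Cstdc3 stayed at or below 12.5 CPM in all 3 pools.

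**Figure D3:**
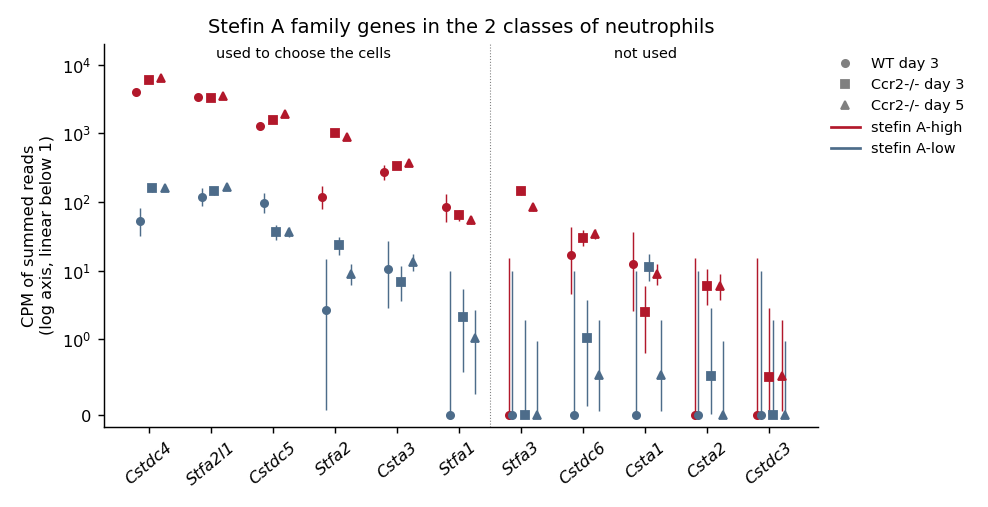
Level of each of the 11 stefin A family genes (CPM of summed reads, log axis that is linear below 1) in stefin A-high and stefin A-low neutrophils of 3 pools; each point is a pool with its exact 95% counting interval, and the 6 genes left of the dotted line were used to choose the cells. Cstdc4 is highest in each pool, Stfa2 is low in WT day 3 at 117.0 CPM, and Stfa3 has no read in any stefin A-low pool.

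The copies were detected in different combinations from cell to cell. After thinning to 3000 reads, Cstdc4 had a read in 92.8% (87.5 to 96.4%) of the stefin A-high cells of Ccr2-/- day 3 and 88.9% (85.0 to 92.1%) of those of Ccr2-/- day 5, against 94.8% and 92.0% before thinning. The shares for Stfa2l1 were 88.2% and 86.5%, for Cstdc5 45.1% and 51.7%, for Stfa2 41.2% and 42.5%, for Csta3 18.3% and 25.5% and for Stfa1 13.7% and 10.5%. Fibroblast- and keratinocyte-rich cells (at least 2000 CPM of Dcn, Krt5 and Krt14) had a median of 73465 reads before thinning. In these cells the share for Cstdc4 was 1.43% in Ccr2-/- day 3 and 3.46% in Ccr2-/- day 5 after thinning. Without thinning, 39 stefin A-high cells had reads of only 1 of the 6 genes, 112 of 2, 125 of 3, 122 of 4, 90 of 5 and 39 of all 6. Across the neutrophils of Ccr2-/- day 5 (n = 665), Spearman's rho between Cstdc4 and Stfa2l1 was 0.67, between Stfa2l1 and Stfa2 it was 0.71, and between Cstdc4 and Csta3 it was 0.40. These cells share 1 library, and Stfa2l1 and Stfa2 share stretches of sequence.

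Outside the stefin A cluster, stefin A-high and stefin A-low neutrophils of the Ccr2-/- pools were close to each other. A gene was compared if it reached 20 CPM in one class and had a read in at least 10% of the cells of the class where it was higher, and it was called if the classes were more than 2-fold apart after adding 10 CPM. With 1 pool per condition this is a rule of size and not a test. In Ccr2-/- day 3, 237 of 3136 genes (7.56%) were past 2-fold in either direction, and in Ccr2-/- day 5, 69 of 2884 (2.39%). In WT day 3, with only 21 stefin A-high and 30 stefin A-low cells, 667 of 4186 genes were past 2-fold higher and 1485 lower. The median size of the log2 ratio was 1.04 there, against 0.33 and 0.23 in the Ccr2-/- pools. The part of the low cell number in this was not tested. Of the 2662 genes compared in both Ccr2-/- pools, 10 (0.376%) were higher in stefin A-high cells in both and 6 (0.225%) were lower in both. All 7 family genes that passed the filter were among the 10. They are the 6 selecting genes and Cstdc6, and nothing follows from the selecting genes being there. Cstdc6 was at 1.04 and 0.527 CPM in the stefin A-low cells of Ccr2-/- day 3 and day 5, against 29.7 and 34.5 CPM in the stefin A-high cells. Stfa3 had a read in under 10% of the cells and did not pass the filter.

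**Figure D4:**
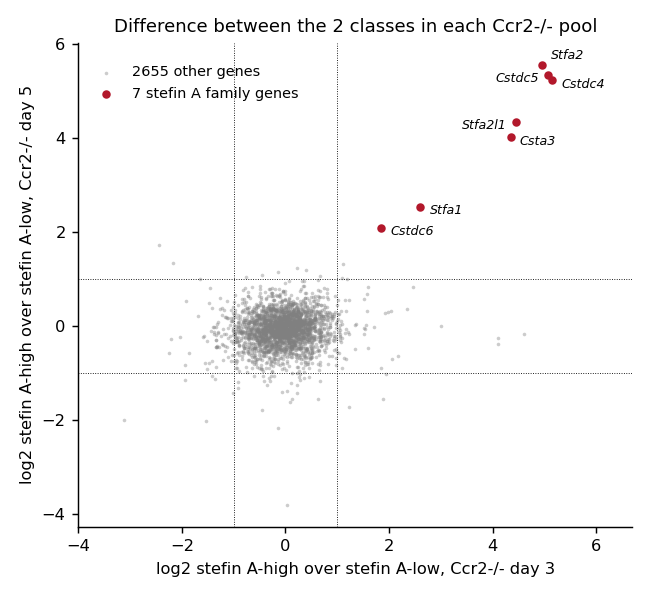
Log2 ratio of stefin A-high over stefin A-low neutrophils (10 CPM added) in Ccr2-/- day 3 (x axis) and Ccr2-/- day 5 (y axis) for the 2662 genes compared in both pools; dotted lines mark 2-fold. The 7 stefin A family genes lie at the upper right, and the other genes lie around 0, with 3 past 2-fold higher and 6 past 2-fold lower in both pools.

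The 3 other higher genes were Amd1, the enzyme that makes decarboxylated S-adenosylmethionine for polyamine synthesis, Ccnt1, a cyclin of the elongation factor P-TEFb, and Igfbp6, a binding protein of insulin-like growth factors. Their levels in stefin A-high cells were low. Amd1 was at 73.0 and 82.0 CPM in Ccr2-/- day 3 and day 5, against 28.5 and 27.1 CPM in stefin A-low cells, Ccnt1 at 74.6 and 64.3 CPM against 29.5 and 26.6 CPM, and Igfbp6 at 176.8 and 106.1 CPM against 72.0 and 47.7 CPM. Without the cells over 100000 reads none of the 3 remained past 2-fold in both pools, nor did Il6 and Bag1 among those below. The 6 lower genes were the basement membrane collagen Col4a1, the cytokine Il6, the extracellular peroxidase Gpx3, the lysosomal carboxypeptidase Ctsa, the cationic amino acid transporter Slc7a2 and the chaperone cofactor Bag1. Amd1, Ccnt1, Slc7a2 and Bag1 stayed under 100 CPM in both Ccr2-/- pools and were named after their values were seen. For Col4a1, Gpx3 and Il6, 63.1%, 68.3% and 84.9% of the stefin A-low reads of Ccr2-/- day 3 came from 1 cell. Ctsa was spread more evenly, at 48.4 and 87.7 CPM in stefin A-high cells and 139.3 and 203.3 CPM in stefin A-low cells, with at most 9.46% of the stefin A-low reads of a pool in 1 cell.

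Among abundant genes no difference beyond 2-fold was shared by the 2 pools. Of 342 genes outside the cluster that reached 500 CPM, 11 were past 2-fold in Ccr2-/- day 3, 2 in Ccr2-/- day 5 and 0 in the same direction in both. Past 1.5-fold in the same direction were 5 genes. Retnlg, a resistin-like protein of mature neutrophils, was higher in stefin A-high cells at 675.6 and 934.5 CPM against 216.5 and 523.1 CPM, with a read in 14.4% and 23.1% of the stefin A-high cells and 11.95% and 17.65% of the stefin A-low cells after thinning, and with 29.3% of the day 3 reads of the stefin A-high cells in 1 cell. Fcgr2b, the inhibitory IgG receptor, the adhesion receptor Adgre5, the transglutaminase Tgm2 and Igfbp7 were lower, with log2 ratios of -0.61 and -0.67 for Fcgr2b. These 5 genes were named after their values were seen.

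The calgranulins S100a8 and S100a9, which the gate used, were somewhat higher in stefin A-high cells. S100a9 was at 24502 and 30761 CPM in the stefin A-high cells of Ccr2-/- day 3 and day 5, against 20203 and 22247 CPM in the stefin A-low cells. In cells with 10000 CPM or more of stefins it was at 28657 and 34054 CPM, and in cells with none it was at 19327 and 24094 CPM, but the order was not the same throughout, since the day 5 cells above 0 and under 2000 CPM had 19819 CPM. Across the neutrophils of a pool the stefin sum and the S100a8 and S100a9 sum had a Spearman's rho of 0.19 on day 3 and 0.20 on day 5, and the stefin sum and the total reads had a rho of 0.04 in both. Csf3r and Cxcr2, also used by the gate, were level, with rho between -0.02 and 0.02 for their sum.

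**Figure D5:**
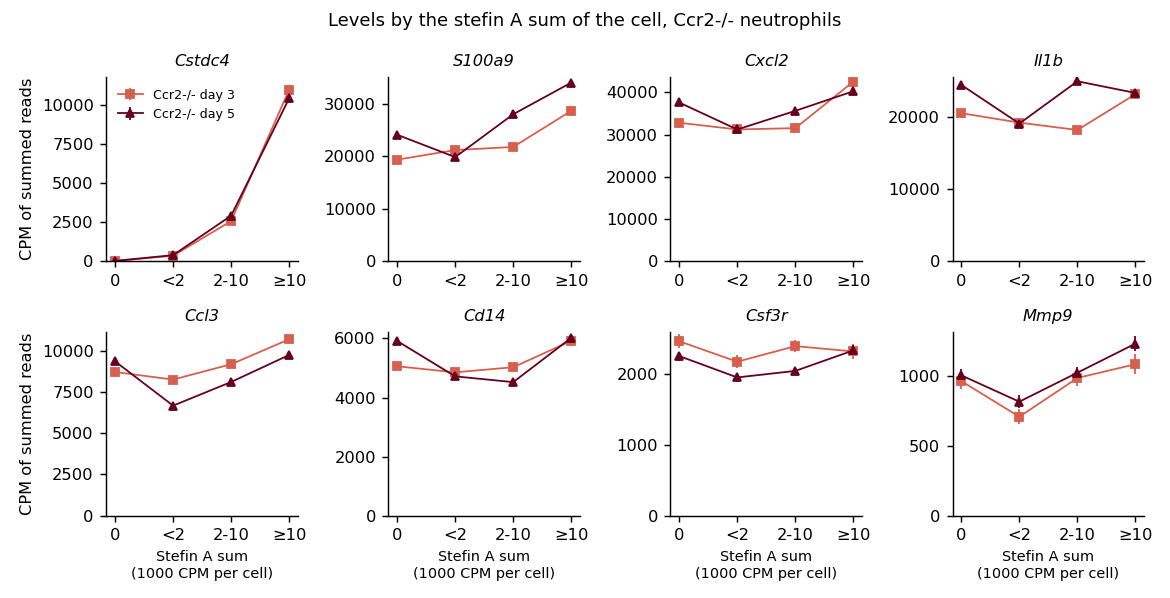
Level of 8 genes (CPM of summed reads, axes from 0) in Ccr2-/- neutrophils binned by the stefin A sum of the cell, from 0 to 10000 CPM or more; squares are day 3, triangles day 5, lines exact 95% counting intervals. Cstdc4 rises by construction, S100a9 reaches 28657 and 34054 CPM in the top bin, and Cxcl2 runs from 31199 to 42552 CPM (day 3) or from 31189 to 40275 CPM (day 5).

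Stefin A-high neutrophils carried the transcripts of inflammatory cytokines and chemokines at very high levels. Cxcl2, a CXCR2 ligand that attracts neutrophils, was at 26064 CPM in WT day 3, 35899 CPM in Ccr2-/- day 3 and 37736 CPM in Ccr2-/- day 5, and Il1b at 17570, 20128 and 24174 CPM. Ccl3 was at 5786, 9805 and 8872 CPM and Ccl4 at 4715, 9582 and 10187 CPM. After thinning, Il1b had a read in 98.7% and 99.7% of the stefin A-high cells of the Ccr2-/- pools, against 6.21% and 10.3% of the fibroblast- and keratinocyte-rich cells, and Cxcl2 in 97.4% and 97.5% against 24.3% and 32.8%. Of 13 cytokine and chemokine genes 12 were compared between the classes, and 0 of them were past 2-fold in either Ccr2-/- pool, which is near the background of 7.56% (day 3) and 2.39% (day 5) over all genes. Il1a, the alarmin form of IL-1, was at 424.2 CPM in Ccr2-/- day 3 and 444.9 CPM in Ccr2-/- day 5, below the 666.4 CPM of the stefin A-low cells of day 5 and above the 385.8 CPM of those of day 3. The median log2 ratio over the 12 genes was 0.10 on day 3 and 0.07 on day 5, beside -0.05 and -0.07 over all genes compared.

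Receptors of mature neutrophils were strongly detected. Of 19 receptor genes 18 were compared, with 0 past 2-fold in either Ccr2-/- pool and median log2 ratios of 0.13 and 0.03. With 7.56% and 2.39% of all genes past 2-fold, a count of 0 among so few genes is near the background. The LPS co-receptor Cd14 was at 5382 and 5206 CPM in the stefin A-high cells of Ccr2-/- day 3 and day 5, the C-type lectins Clec4d and Clec4e at 2629 and 2669 CPM and at 2636 and 2880 CPM, and Trem1, an amplifier of inflammatory signalling, at 1718 and 2286 CPM. Cxcr4, whose level rises in aged neutrophils, was at 204.5 and 186.8 CPM against 237.2 and 278.7 CPM in stefin A-low cells.

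Granule genes of the earliest marrow stage were near 0. Of 6 azurophil granule genes 0 passed the filter, and Elane and Prtn3 had no read in any stefin A-high cell of WT day 3 or the Ccr2-/- pools. The specific granule genes Ltf, Camp and Ngp were at 0 to 12.2 CPM, whereas Lcn2, a siderophore-binding protein that mature neutrophils can still express, was at 723.2, 371.8 and 499.9 CPM in WT day 3, Ccr2-/- day 3 and Ccr2-/- day 5. Of 8 gelatinase and secretory granule genes 7 were compared. The log2 ratio of stefin A-high over stefin A-low was above 0 for all 7 in both Ccr2-/- pools, with medians of 0.49 and 0.27. Ly6g, which did not pass the filter, went the other way, at 17.1 and 16.1 CPM against 39.9 and 23.2 CPM. Over all genes compared the medians were -0.05 and -0.07. Past 2-fold were 2 of the 7 on day 3 (Retnlg and Fpr1) and 0 on day 5. Of the 4 specific granule genes compared on day 3, Lcn2 was past 2-fold higher, at 176.1 CPM in stefin A-low cells, and Chil3 past 2-fold lower, at 51.4 against 116.5 CPM. Over all genes 7.56% (day 3) and 2.39% (day 5) were past 2-fold, and counts among so few granule genes were not tested against these shares. The gelatinase Mmp9 was at 1028 and 1122 CPM against 844.6 and 926.4 CPM.

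Among the cysteine protease genes and the other inhibitors of such proteases, no gene was past 2-fold higher in stefin A-high cells in either Ccr2-/- pool. Of 8 cysteine protease genes, which were cathepsins and legumain (Lgmn), 6 were compared in each Ccr2-/- pool. Lgmn, which is not a cathepsin, was the only one past 2-fold. On day 5 it was at 26.2 CPM in stefin A-high and 170.2 CPM in stefin A-low cells. The median log2 ratio over the 6 was -0.03 on day 3 and -0.80 on day 5. Over all genes compared it was -0.05 and -0.07, and 7.56% and 2.39% were past 2-fold. On day 5 stefin A-low cells had more monocyte or macrophage reads (466.5 against 210.7 CPM) and basophil or mast cell reads (463.6 against 43.1 CPM) than stefin A-high cells. On day 3 these were 267.7 against 263.0 CPM and 19.7 against 80.1 CPM. Their part in the protease levels was not tested. Ctsb was at 524.9 and 355.2 CPM against 602.8 and 625.0 CPM, and Ctss, the main cathepsin of antigen-presenting cells, at 271.0 and 265.1 CPM against 247.5 and 261.6 CPM. Stefin B (Cstb), the other cytosolic stefin, lies outside the cluster and was at 524.4 and 472.4 CPM against 565.0 and 659.0 CPM, so it was not raised together with the stefin A genes. Cystatin C (Cst3) was at 439.3 and 770.5 CPM against 810.9 and 759.4 CPM. Of 6 other protease inhibitors 5 were compared, and Wfdc17 and Wfdc21 were past 2-fold higher on day 3 only. Wfdc17 was at 861.0 and 797.5 CPM against 407.0 and 633.7 CPM. Wfdc21 was at 204.0 and 240.2 CPM in stefin A-high cells and 65.3 and 158.3 CPM in stefin A-low cells.

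Genes of other programmes were detected in the stefin A-high cells. Over the lists other than the stefin A family, 84 of 112 genes were compared in both Ccr2-/- pools. Of these 84, 0 were past 2-fold in the same direction in both and 5 were past it in either pool. Chil3 (day 3) and Lgmn (day 5) were past it too but were compared in 1 pool only. Over all genes 0.376% were higher and 0.225% lower in both, so that the count of 0 is near the background. In a single pool 7.56% (day 3) and 2.39% (day 5) of all genes were past 2-fold. Of the interferon-stimulated genes Ifitm1 was at 1946 and 1563 CPM in the stefin A-high cells of Ccr2-/- day 3 and day 5, of the survival genes Mcl1 at 2410 and 2880 CPM, and of the NADPH oxidase genes Ncf4 at 451.9 and 410.7 CPM. Among metabolic genes, Acod1, which makes itaconate, was at 3092 and 2925 CPM and the glycolytic enzyme Pkm at 1485 and 1391 CPM.

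From day 3 to day 5 the stefin A-high neutrophils of Ccr2-/- mice kept these genes within 2-fold. Of 2980 genes compared, 44 (1.48%) were past 2-fold higher and 96 (3.22%) past 2-fold lower on day 5. Of the 89 compared genes of the lists outside the stefin A family 0 were past 2-fold, and of 7 stefin A genes 0. Il1rn, the IL-1 receptor antagonist, was at 3094 CPM on day 3 and 2233 CPM on day 5, and Cxcl3 at 1233 and 805.0 CPM. Il1b was at 20128 and 24174 CPM.

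For most of the genes with the largest falls in time, 1 cell held most of the day 3 reads. Among the genes that reached 100 CPM, those with the largest rise in value on day 5 were the phospholipid flippase Atp11b at 35.3 and 159.3 CPM, the chromatin protein Sltm, the PI3-kinase subunit Pik3cd, the chemokine Cxcl12, Ly6c1, Gpr137b-ps, Atrx, Glul, Ist1 and Vps37b. Of the Cxcl12 reads of day 5, 57.9% were in 1 cell. The largest falls in value were for Thbs4, Timp1, Cxcl14, Igfbp5, Mt2, Serpine2, Sod3, Igfbp4, Plpp3 and Sdc4, most of them made by fibroblasts. For all but Igfbp4 and Sdc4, 83.95% to 97.65% of the day 3 reads came from 1 cell. Without the cells over 100000 reads (1 in each pool), Timp1 was at 81.35 CPM on day 3 and 54.5 CPM on day 5, Thbs4 at 19.2 and 21.9 CPM, and Plpp3 turned from lower to higher on day 5, and 67 genes were past 2-fold higher and 45 lower.

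The comparison between genotypes on day 3 rested on 21 WT cells with 239215 reads in all, 20.3% of them in the deepest cell. Of 3271 genes, 636 (19.4%) were past 2-fold higher in Ccr2-/- and 602 (18.4%) past 2-fold lower, and this share of all genes is the background for each count that follows. Of the 87 compared genes of the lists outside the stefin A family, 16 were higher and 9 lower. The most abundant of the higher genes were Ccl4, with 4715 CPM (WT) against 9582 CPM (Ccr2-/-), and Il1rn, at 493.3 CPM (408.3 to 590.7) and 3094 CPM (3017 to 3172). Il1rn had a read in 33.3% (14.6 to 57.0%) of the WT and 83.0% (76.1 to 88.6%) of the Ccr2-/- stefin A-high cells after thinning, and the stefin A-low cells had the same order, with 618.2 CPM (WT) against 3549 CPM (Ccr2-/-). Cxcl3 was at 229.9 and 1233 CPM and the checkpoint ligand Cd274 at 267.5 and 784.4 CPM. The survival genes Bcl2a1a, Bcl2a1b and Bcl2a1d, near-identical copies, were at 121.2, 401.3 and 104.5 CPM in the WT cells, against 354.7, 1112 and 425.2 CPM. The glucose transporter Slc2a1 was at 125.4 and 394.0 CPM, and the other higher genes were Cxcr4, Slpi, Cd177, Ifitm1, Gbp2, Xiap, Egln3 and Ctsk. Of the genes that were lower in Ccr2-/-, the chemokine Ccl6 stood at 1660 CPM (WT) against 527.5 CPM, and the antiviral gene Rsad2 at 1635 and 487.7 CPM. The other lower genes were Cst3, Ctss, Ctsc, Lgmn, Cyba, Gsdmd and Slc2a3. Without the deepest of the 21 WT cells, 12 of the 16 higher and 6 of the 9 lower genes were still past 2-fold. Ccl4 (5607 CPM in the other 20 WT cells), Ifitm1, Slpi and Cd177 stayed higher in Ccr2-/- but within 2-fold, and so did Cst3 on the lower side, at 639.8 CPM in WT. Ctss and Lgmn turned direction, to 125.9 and 10.5 CPM in WT against 271.0 and 26.2 CPM in Ccr2-/-.

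Across all genes, the largest ratios toward Ccr2-/- were for Hbegf, Thbs4, Xbp1, Clic4, Ffar2, Cxcl14, Cish, Car4, Prnp and Tfec. Hbegf, a growth factor of the EGF family, had no read in the 21 WT cells and was at 1015 CPM in Ccr2-/-. That is 80.9 times the 12.5 CPM that 3 reads over the WT pool would give. By the same floor the ratio was 18.7 for Clic4, 17.15 for Cish, 14.6 for Car4 and 14.1 for Tfec. The floor treats reads as independent, but they include PCR copies and lay in a minority of cells, so these ratios are not lower bounds. Without thinning, 28.8% of the Ccr2-/- stefin A-high cells had a read of Hbegf, 28.1% of Clic4, 24.8% of Cish, 18.3% of Tfec and 11.1% of Car4. Finding 0 of 21 cells with a read allows a share of cells with a read of up to 14.3%, which is above the Car4 share. It limits detection at this depth and not expression. Hbegf was at 1056 CPM in the stefin A-high cells of Ccr2-/- day 5. The Thbs4 and Cxcl14 values of Ccr2-/- rested on 1 cell for 97.7% and 90.7% of their reads.

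The genes with the largest ratios toward WT were Mrc1, Ctsc, H2-Ab1, Sephs2, Vps37c, Got2, Mpzl3, H2-Aa, Dusp22 and Filip1l, and several are genes of macrophages and dendritic cells. The mannose receptor Mrc1 stood at 673.0 CPM (WT) against 9.07 CPM, the MHC class II gene H2-Ab1 at 1141 and 59.5 CPM, and the protease Ctsc at 593.6 and 7.05 CPM. For these genes 88.8%, 97.8% and 96.5% of the WT reads were in 1 cell. Without the deepest of the 21 WT cells, Mrc1 fell in value to 94.4 CPM, H2-Ab1 to 31.5 CPM, Ctsc to 26.2 CPM and Ccr2 from 727.4 CPM to 0, since all 174 of its reads were in that cell, whereas Il1rn was at 451.0 CPM and Stfa2 at 141.6 CPM. In that comparison 832 of 3692 genes were past 2-fold higher and 851 lower, and 1046 of the 1238 genes called with all 21 cells were called again in the same direction. The monocyte or macrophage markers of WT and Ccr2-/- stefin A-high cells given above differed in the same direction, and their part in the genotype comparison was not tested.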

How the data were processed

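Single-cell cDNA and hashtag libraries were made from 1 mixture of 4 pools of ear skin cells. According to the methods and the submitters' processing notes, Cutadapt removed adapters, Bowtie2 placed reads on mouse transcripts (GRCm38.p6), and the authors retained barcodes past the inflection in the curve of reads per barcode. The deposited values are whole-number counts of reads per gene and barcode, not of molecules, so PCR copies enter each level. How hashtag reads were counted is not given in the sources used here, and 9 further hashtag columns were not used.

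Cells were gated and pooled as the report states. A pool was assigned by the highest hashtag count divided by its column total, at least 3 times the next. Levels are CPM of summed reads with exact Poisson intervals, shares have exact Clopper-Pearson intervals, and shares of cells with a read were computed after thinning each cell to 3000 reads, which left out no cell. Zeros were set against a floor of 3 reads per pool. Genes were compared at 20 CPM or more with a read in 10% of cells, on the log2(CPM + 10) scale. The members, gene lists and rules were chosen with earlier results of these data known. Named are the family genes, listed genes past 2-fold, the most abundant of the others, and up to 10 genes per direction with the largest change among those reaching 100 CPM. With 1 pool per genotype and day, the p-value over 4 pools measures only the spread between these pools. No doublet caller was run. One listed receptor gene is not reported here. Only the fold comparison was tested on simulated reads with known changes, and these had no spread from cell to cell. Promoters came from RefSeq. Analyses used Python 3.11.15 with numpy 2.4.6, scipy 1.17.1, pandas 2.3.3, matplotlib 3.10.9 and biopython 1.88.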

Additional observations from a re-analysis of the deposited data

How the results depend on the processing

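No paired analysis was possible because each genotype and day was 1 pool. The stefin A-high share of neutrophils followed the limit itself: with 1000 CPM it was 56.9%, 59.3% and 54.9% (WT day 3, then the Ccr2-/- pools of day 3 and day 5), and with 5000 CPM it was 21.6%, 36.2% and 38.5%. With 20000 CPM required of S100a8 and S100a9 it was 53.65% in Ccr2-/- day 5. Leaving out each pool in turn, the difference between genotypes ranged from 5.99 to 12.1 points. Genes higher in stefin A-high cells in both Ccr2-/- pools numbered 24 with no filter on low values. Genes lower in both numbered 15 with 1 CPM added, 75 with no filter, 46 with a stefin limit of 5000 CPM and 2 when stefin A-low meant under 500 CPM. Genes higher on day 5 numbered 75 with the mean over cells, 91 with 1 CPM added, 492 with no filter and 67 without cells over 100000 reads, and genes lower numbered 145, 623 and 45 under the last 3 of these. Between genotypes the counts without the filter were 2693 higher and 1762 lower. The causes of these shifts were not tested. Leaving out the deepest WT cell was an alternative chosen after seeing the data. Of 204 levels (68 genes in 3 pools, which leave out most genes named for the largest changes), 7 moved by over 1.5 times with the mean over cells, 5 with a hashtag ratio of 10 and 0 without cells over 100000 reads. Levels outside this set did move without those cells, such as Timp1 from 1472 to 81.35 CPM and Thbs4 from 749.1 to 19.2 CPM in Ccr2-/- day 3. The WT values rest on few cells, 21 on day 3 and 2 on day 5.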
